A study of Mus musculus with 24 samples.

Results

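The libraries described here are 7 pools of mouse otocyst epithelium in which signalling through FGFR2b was blocked, 4 taken at embryonic day E10.25 and 3 at E11.25. They are 7 of the 24 samples of the study, of which 22 have counts in the deposited table. The study compared control and blocked otocysts after 3 doxycycline exposures, each in 4 pregnant females. The epithelium was freed from each otocyst and combined with that of littermates of the same genotype, so that each female gave a control pool and a blocked pool. One pool is therefore 1 replicate, it averages over the embryos of that litter, and p-values measure the spread between litters.

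Blocked pools, called R2b, had the genotype Rosa26rtTA/+;Tg(tetO-s(dn)Fgfr2b)/+. Rosa26rtTA expresses the doxycycline-dependent activator rtTA from the broadly active Rosa26 locus, so induction is not restricted to the ear. The second allele places a secreted, dominant-negative FGFR2b under the tetO promoter. Control pools, called con, were Rosa26rtTA/+ and also received doxycycline. Every female was injected with 1.5 mg/kg doxycycline and then fed chow with 200 mg/kg doxycycline. The E10.25 pools had been exposed from E9.25 for 24 hours and came from litters 310, 315, 329 and 3716. The E11.25 pools had been exposed from E10.25 for 24 hours and came from litters 061215, 070715 and 070915. Another set of 3 R2b pools (litters 052815, 052015 and 052715B), exposed from E9.75 for 12 hours, also ended at E10.25 and is used below as another E10.25 side.

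Stage and sequencing request cannot be told apart in these pools. All E11.25 libraries belong to request 11734, all 24 hour E10.25 libraries to request 12406, and all 12 hour libraries to request 11639. The day at which the block began, E10.25 or E9.25, is confounded with stage in the same way. No sentence below separates development from request or from the day of induction.

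The E11.25 libraries were chosen by their counts of Ighg1, the immunoglobulin constant region gene that takes up reads of the secreted decoy. The 3 R2b libraries kept at E11.25 held 25248, 23658 and 19155 Ighg1 counts, and the 4 at E10.25 held 26082, 27916, 42515 and 30615. The fourth E11.25 litter, 061115, was left out because the library labelled R2b held 1504 counts while the library labelled con held 15754. Fgfr2, the other gene that takes up decoy reads, stood at 1330, 1490, 1940 and 1530 CPM (counts scaled to library size) in the E10.25 pools and at 1250, 878 and 971 CPM in the E11.25 pools. These 2 genes chose or check the libraries and are given with no test.

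FGFR2b is the epithelial splice form of FGF receptor 2 and binds FGF3, FGF7, FGF10 and related ligands. In the ear these ligands act first on the placode and otic cup and then on the closed otocyst. Over the stages sampled here the otocyst starts to form the endolymphatic duct and canal pouches dorsally and the cochlear duct ventrally, and neuroblasts leave its ventral wall for the cochleovestibular ganglion. Maturation of many embryonic tissues at mid-gestation is also marked by the loss of early RNA-binding proteins such as LIN28A, which hold back the let-7 family of microRNAs.

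Calls rest on edgeR's quasi-likelihood test of 3 E11.25 against 4 E10.25 pools, with an FDR (Benjamini-Hochberg) under 0.05 as the limit, and only called genes are said to rise or fall. Log2 fold changes are E11.25 over E10.25, with standard errors (SE) from the fit. CPM values are scaled over 17 libraries and are given by litter in the order 310, 315, 329 and 3716 at E10.25 and 061215, 070715 and 070915 at E11.25. Most genes named below have groups that are separate, meaning without overlap in CPM. Separation comes from the same values as the call and adds no support to it, and its share over all genes is not given.

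Between the stages 4256 of 15322 genes were called (27.8%), of which 2190 were higher at E11.25 (14.3%) and 2066 were lower (13.5%). These shares are the background for each list count below. The median absolute log2 fold change of the called genes was 0.43, and 1446 of them changed by at least 1.5-fold. A larger count was found within 1 stage. The 24 hour R2b pools differed from the 12 hour R2b pools, which ended at the same stage under another request and a shorter exposure, in 6455 of 15264 genes (42.3%). Against these 12 hour pools as the E10.25 side, 4996 of 15289 genes were called (32.7%). Both versions of the stage comparison share the 3 E11.25 libraries, so their values are set side by side gene by gene below.

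Libraries differed within each stage as well. Litter 061215 was the E11.25 library nearest to the E10.25 mean in 2637 of the 4256 called genes (62%), and litter 329 was the E10.25 library farthest from the E11.25 mean in 2210 of them (51.9%). The count of called genes was 2159 without litter 070715, 2650 without litter 070915, 2874 without litter 310 and 2992 without litter 329. Mitochondrial genes took 1.57 to 1.68% of counts in the E10.25 pools and 2.11 to 2.85% in the E11.25 pools, and their part in the results was not tested. Fewer cells of a type and less RNA per cell cannot be told apart in pooled tissue.

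Markers of other tissues also moved with single libraries. Of 12 blood markers 10 were in the table, and their summed level ran from 12.9 to 645 CPM at E10.25 and reached 712, 5090 and 265 CPM at E11.25. The high value was that of litter 070715. The summed level of 12 mesenchyme markers was 440, 217, 99.2 and 1230 CPM at E10.25 and 734, 779 and 471 CPM at E11.25, and that of 12 endothelium markers was 16.5 to 151 CPM and 37.8 to 77.7 CPM. Litter 3716 was highest and litter 329 lowest in both lists. Surface ectoderm markers summed to at most 2.12 CPM in any of the 7 pools. Of 82 marker genes 13 had no row in the table used here, and none of the others was at 0 in all 7. The otic epithelium list, headed by the otoconial protein gene Oc90, summed to 2770 to 4530 CPM at E10.25 and 5020 to 6680 CPM at E11.25, so the labelled tissue was present in each pool. Of these sums, Oc90 alone made up 1310 to 2910 CPM at E10.25 and 3260 to 5010 CPM at E11.25.

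**Figure D1:**
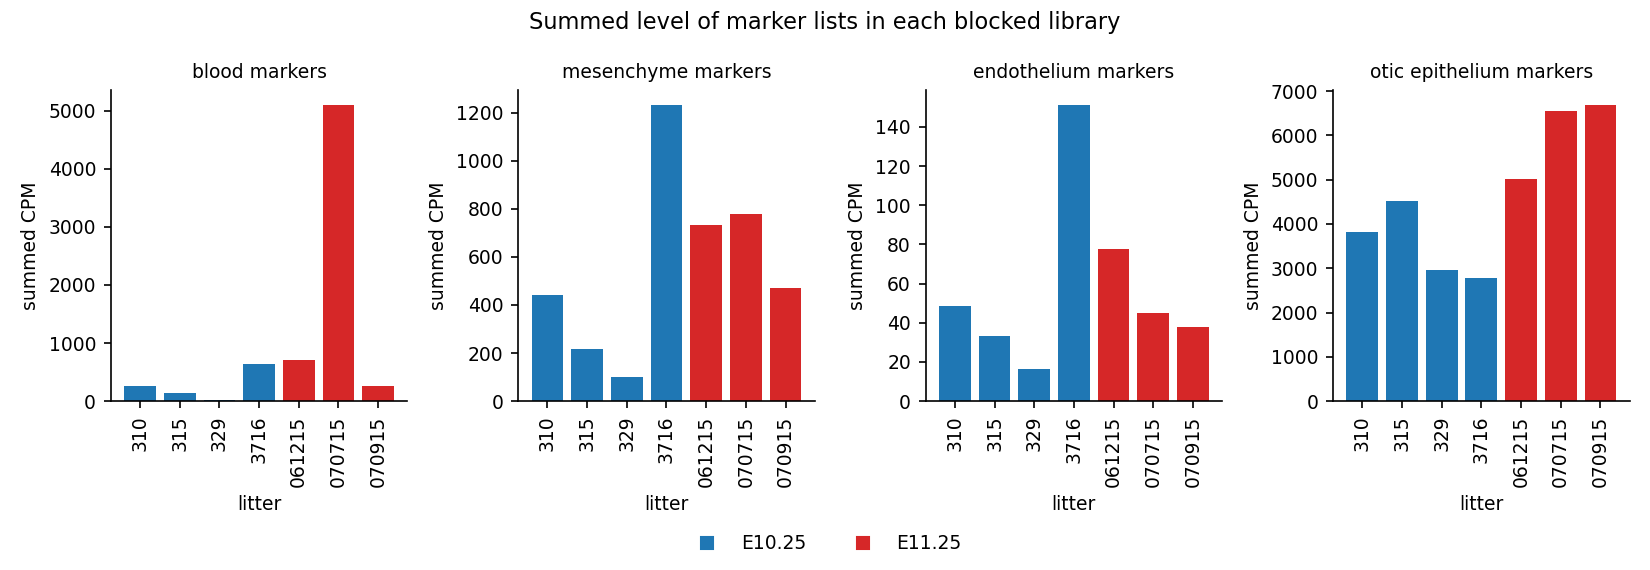
Summed CPM of 4 marker lists in each R2b library, by litter, with E10.25 in blue and E11.25 in red. Blood markers reached 5090 CPM in litter 070715, mesenchyme and endothelium markers were highest in litter 3716, and each E11.25 library was above each E10.25 library for the otic epithelium list. That list includes Oc90, at 1310 to 2910 CPM at E10.25 and 3260 to 5010 CPM at E11.25.

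The largest changes, in genes that were also called in the same direction against the 12 hour pools, were rises of hemoglobin genes. Hbb-bs, an adult beta globin gene, stood at 0.664, 0.0977, 0 and 1.06 CPM at E10.25 and at 4.56, 92.9 and 4.71 CPM at E11.25, a log2 fold change of 6.27 (SE 1.37, FDR 0.0132). Hba-a2, an alpha globin gene, reached 3.45, 44.5 and 1.73 CPM at E11.25 against at most 0.712 CPM at E10.25. In both, litter 070715 was far above the other E11.25 pools, and it was also the pool with the most blood marker. Without it the log2 fold changes were 3.36 for Hbb-bs and 3.30 for Hba-a2, and Hba-a2 was no longer called (FDR 0.0598). These globin genes have near-identical copies, so their split of reads is uncertain.

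Genes of other functions followed. Nr4a3, an orphan nuclear receptor gene of the immediate-early class, stood at 0.664, 0.635, 0.27 and 0.528 CPM at E10.25 and at 4.93, 32.1 and 28.6 CPM at E11.25 (log2 fold change 5.42, SE 0.66, FDR 0.00281). Sall3, a spalt-family zinc finger gene, stood at 3.32, 5.57, 1.76 and 3.31 CPM and then at 20.1, 76.2 and 71.9 CPM (4.05, SE 0.51, FDR 0.00287). In both genes the groups were separate and litter 061215 lay between the E10.25 pools and the other E11.25 pools. The remaining large rises were of Pgm5 (log2 fold change 4.00), the collagen prolyl hydroxylase gene P4ha3 (3.97), the secretory pathway kinase-like gene Fam20a (3.78), Kctd8 (3.49), the ephrin receptor gene Epha3 (3.15) and the cadherin gene Cdh8 (3.11). In Fam20a the pools stood at 3.51, 5.13, 0.63 and 2.11 CPM and then at 22.6, 44.4 and 46.7 CPM. Litter 061215 was the lowest E11.25 pool in each of these 6 genes, and still above every E10.25 pool.

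Among the falls, Car4, a membrane-bound carbonic anhydrase gene at chr11:84957786-84966044 (plus strand, GRCm38), stood at 105, 98.5, 200 and 85 CPM at E10.25 and at 24.1, 4.8 and 7.05 CPM at E11.25 (log2 fold change -3.34, SE 0.57, FDR 0.00576). Lin28a (chr4:134003330-134018841, minus strand, GRCm38) stood at 77.8, 58.9, 195 and 79.6 CPM and then at 22.5, 6.89 and 9.38 CPM (-2.97, SE 0.54, FDR 0.00726). Prtg, encoding the immunoglobulin superfamily receptor protogenin of early embryonic epithelia, stood at 145, 128, 296 and 158 CPM and then at 60, 35.6 and 36.3 CPM (-2.01, SE 0.32, FDR 0.00488). Litter 329 was highest at E10.25 and litter 061215 highest at E11.25 in all 3 genes.

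Wfikkn1, a secreted protease inhibitor gene whose product binds growth factors of the TGF-beta family, stood at 175, 180, 244 and 170 CPM and then at 61.9, 3.3 and 5.88 CPM. Its call (log2 fold change -3.01, SE 0.86, FDR 0.0331) was lost in 5 of the 7 fits that left out 1 library, those without litters 070715, 070915, 310, 315 and 329, with FDR up to 0.0882. Without litter 061215 its log2 fold change was -5.39. The other large falls were of Psd2 (-2.54), the muscle giant protein gene Neb (-2.45), the urokinase gene Plau (-2.36), Lrrc10b (-2.13), Stum (-2.07) and H2-Bl (-1.97). H2-Bl belongs to a family of similar histocompatibility genes and its reads may be shared, and its call was lost without litter 070715 and without litter 070915.

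**Figure D2:**
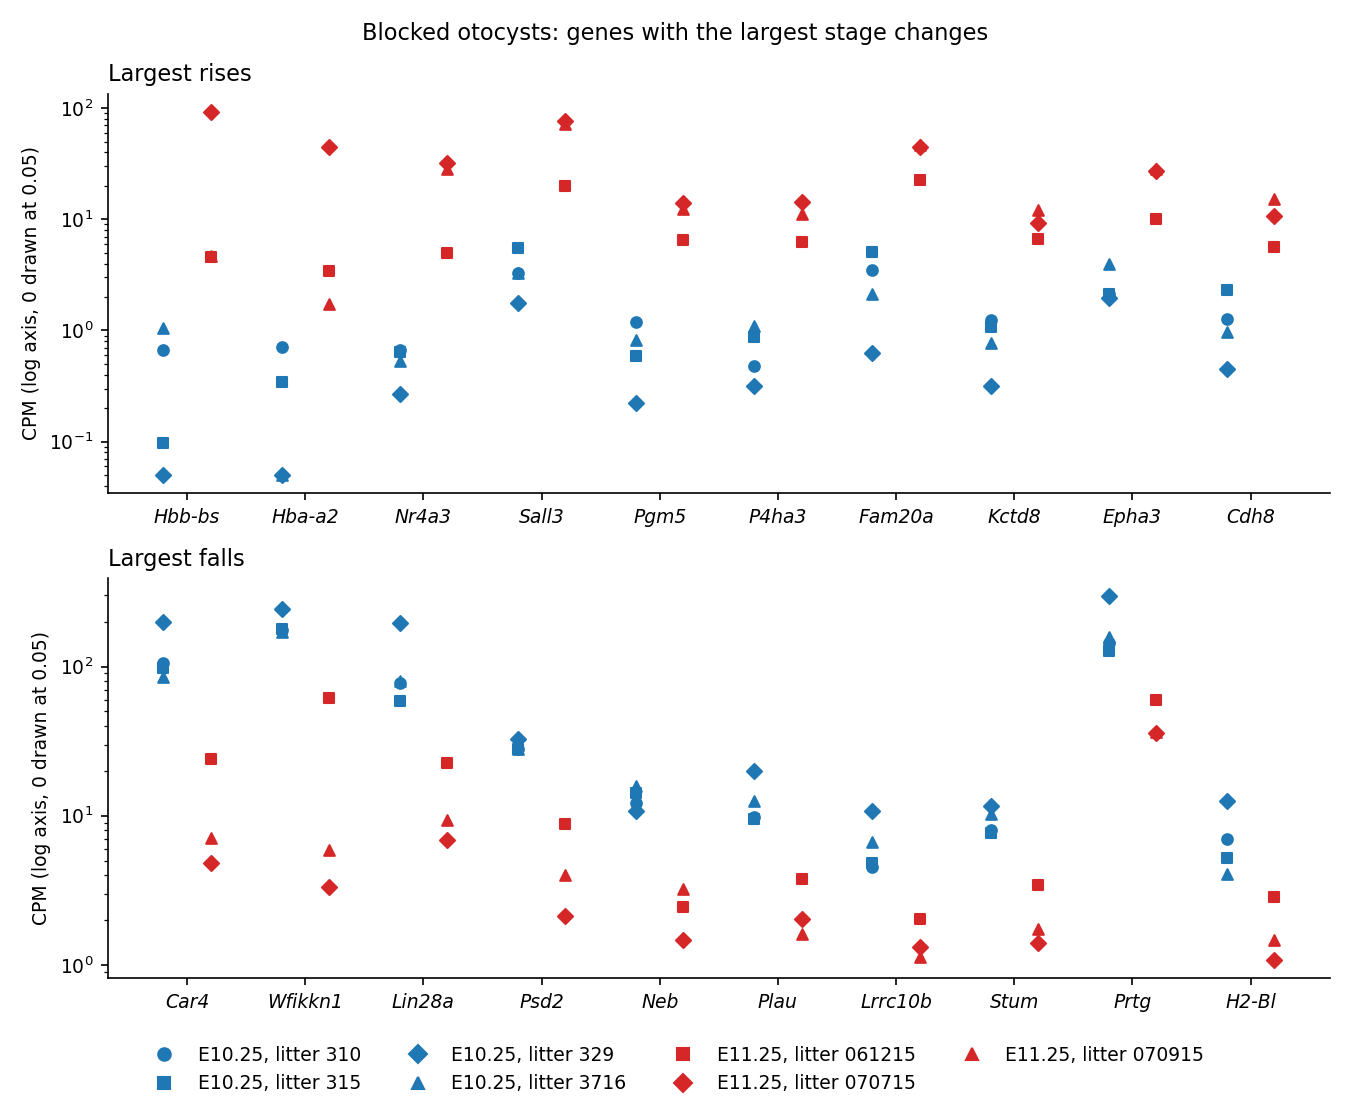
CPM on a log axis in each R2b library for the 10 largest rises and the 10 largest falls, with E10.25 pools in blue, E11.25 pools in red and 1 marker shape per litter within a stage. The groups do not overlap in any of the 20 genes, as the choice of genes required, and litter 061215 (red squares) lies nearest to the E10.25 pools in most of them.

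The 12 early developmental RNA-binding and chromatin genes gave 8 falls and no rise, with a median log2 fold change of -0.75 beside 0.01 over all genes tested. Lin28b, the paralogue of Lin28a, fell by 1.21 on the log2 scale (SE 0.15, FDR 0.003), from 111, 104, 162 and 126 CPM to 61, 49 and 48.7 CPM. Trim71, a let-7 target encoding an RNA-binding ubiquitin ligase, fell by 1.66 (SE 0.24, FDR 0.00375), from 80.3, 67, 124 and 92.2 CPM to 37.3, 21.9 and 25 CPM. In both genes the stages were separate and litter 061215 was the highest E11.25 pool.

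The orphan nuclear receptor gene Nr6a1 (log2 fold change -1.88, FDR 0.00675), the zinc finger gene Sall4 (-1.34, FDR 0.013), the de novo methyltransferase gene Dnmt3b (-0.99, FDR 0.00282), Igf2bp1 (-0.51, FDR 0.00382) and Igf2bp3 (-0.35, FDR 0.0182) fell too. Igf2bp1 and Igf2bp3 encode RNA-binding proteins of the fetal IGF2BP family. Hmga2, which encodes an architectural chromatin protein and is a textbook let-7 target, stood at 324, 291, 372 and 475 CPM and then at 390, 390 and 269 CPM, with overlapping groups (-0.03, FDR 0.929). Hmga1, Igf2bp2 and Mycn were not called either. Leaving out 1 library at a time gave 7 to 10 falls and at most 1 rise. Against the 12 hour pools 9 of the 12 were lower and 1 was higher, and in con pools of the same litters 9 of 12 fell and none rose.

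The let-7 microRNAs themselves were not measured, since poly(A) selection does not capture mature microRNAs. The letters that pair are shown because 10 of the 12 genes carry them. The list includes known let-7 targets, such as Trim71 and Hmga2, so this share is no result about the genes that fell. The 8 let-7 names a to i in the RefSeq table (GRCm38.p6) share 1 seed, bases 2 to 8, given in capitals.
let-7a-5p, chr13:48538239-48538260, minus strand: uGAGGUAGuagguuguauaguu
let-7g-5p, chr9:106178846-106178867, plus strand: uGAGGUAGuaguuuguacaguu
let-7i-5p, chr10:122985698-122985719, minus strand: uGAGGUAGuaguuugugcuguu
The first match to this seed in the longest annotated 3′ untranslated region (GENCODE M21, GRCm38) is printed below for 4 genes that fell and for Hmga2, with the 7 paired bases in capitals.
Lin28a, chr4:134005189-134005210, minus strand: cacagcctgttgaaCTACCTCa
Lin28b, chr10:45381022-45381043, minus strand: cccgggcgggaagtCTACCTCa
Trim71, chr9:114512472-114512493, minus strand: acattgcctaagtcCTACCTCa
Igf2bp1, chr11:95961778-95961799, minus strand: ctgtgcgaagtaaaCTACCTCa
Hmga2, chr10:120364224-120364245, minus strand: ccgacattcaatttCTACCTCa

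The motif CTACCTC, read on the transcript strand, was found 2 times in Lin28a, 4 times each in Lin28b, Trim71, Igf2bp1 and Hmga2, and 8 times in Nr6a1. Dnmt3b and Mycn held none. Of 13686 tested genes with an annotated 3′ untranslated region, 1463 held the motif (10.7%). These regions were not matched in length to those of the list, and the shares were not tested against each other. Hmga2 holds as many matches as Trim71 and was not called. A match describes letters in the annotation and not a site in use.

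The 10 ventral otic and cochlear genes gave 9 rises and no fall, with a median log2 fold change of 0.64. Over all genes 14.3% rose. Otx2, a homeobox gene of the ventral otocyst and later of nonsensory cochlear epithelium (chr14:48657677-48673819, minus strand), stood at 9.68, 8.55, 2.57 and 3.31 CPM and then at 22.4, 54.1 and 44.4 CPM (log2 fold change 2.78, SE 0.48, FDR 0.00612). Its relative Otx1, needed for the lateral canal and for separating ear chambers, stood at 20.9, 24.3, 18.8 and 18.7 CPM and then at 38.1, 41 and 34.7 CPM (0.91, SE 0.11, FDR 0.0028). Litters 329 and 3716 were lowest for Otx2 at E10.25, and litter 061215 was lowest at E11.25.

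Emx2, a homeobox gene required for hair cell orientation and cochlear growth, rose by 1.15 (FDR 0.0188), and Rorb by 1.29 (FDR 0.00748). The nuclear receptor gene Nr2f1 (0.71, FDR 0.00688), the T-box genes Tbx3 (0.56, FDR 0.0072) and Tbx2 (0.29, FDR 0.0229) and the transcriptional cofactor gene Eya4 (0.50, FDR 0.0213) rose by less. Tbx1 was not called. Leaving out 1 library gave 5 to 9 rises and no fall. Against the 12 hour pools the list had 2 rises and 4 falls and a median of -0.13. In con pools of the same litters 3 of 10 rose and none fell, with a median of 0.26. Otx2 and Rorb were higher against both sides, at 1.08 and 0.65 against the 12 hour pools, while Otx1 was lower there at -0.93 (FDR 0.00199) and Tbx2 at -0.50. The Otx1 level in the 12 hour pools was 61.7, 61 and 83.8 CPM.

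The 15 dorsal otic, canal and endolymphatic genes gave 6 rises and 2 falls, where 14.3% of all genes rose and 13.5% fell. Ntn1, the secreted guidance protein gene needed for fusion of the canal plates, stood at 16.1, 16.6, 11 and 12.6 CPM and then at 37.7, 101 and 88 CPM (log2 fold change 2.47, SE 0.32, FDR 0.003). Foxi1, the forkhead gene that controls ion transport genes of the endolymphatic epithelium, stood at 6.46, 5.96, 2.79 and 4.61 CPM and then at 17.1, 25.8 and 28.8 CPM (2.31, SE 0.29, FDR 0.00285). Slc26a4, the pendrin gene of that epithelium, stood at 0.45 to 0.72 CPM and then at 1.06, 2.5 and 3.03 CPM (1.87, SE 0.38, FDR 0.0101). All 3 genes had separate groups and were called higher against the 12 hour pools, by 1.86, 1.98 and 2.19.

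Dlx3, a distal-less homeobox gene of the dorsal otocyst, rose by 2.21 (SE 0.22, FDR 0.00201). Against the 12 hour pools, where it stood at 20.3, 17.6 and 22.2 CPM, its log2 fold change was 0.38 and it was not called. Meis1 (0.72) and Msx2 (0.41) rose, and Gbx2, a homeobox gene required for the endolymphatic duct (-0.99, FDR 0.0152), and Msx1 (-0.58, FDR 0.0466) fell. The list median was 0.07 on both sides, but against the 12 hour pools 3 genes were called higher and 3 lower. Fits without 1 library gave 4 to 6 rises and 0 to 3 falls, with 4 rises and no fall without litter 070915.

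Of 14 inner ear extracellular matrix genes 12 were tested, of which 7 rose and 1 fell, with a median of 0.70. Over all genes 14.3% rose and 13.5% fell. Otogl, a gene of the tectorial and otolithic membranes (chr10:107760531-107912134, minus strand), stood at 13.5, 14, 5.36 and 6.1 CPM and then at 42.9, 79.7 and 84.7 CPM (log2 fold change 2.87, SE 0.38, FDR 0.00319). Tecta, encoding alpha-tectorin, stood at 2.94, 2.98, 2.21 and 3.51 CPM and then at 6.86, 11.4 and 12.4 CPM (1.85, SE 0.24, FDR 0.003). Epyc, a small proteoglycan gene, stood at 0.384 to 0.781 CPM and then at 3.18, 9.98 and 8.3 CPM (3.71, SE 0.42, FDR 0.00242). In each, litter 061215 was the lowest E11.25 pool and the groups were separate.

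Coch (2.15, FDR 0.00369), Otoa (1.57, FDR 0.0179), Otog (0.82, FDR 0.004) and Col9a2 (0.58, FDR 0.0079) rose. Col11a1, a fibrillar collagen gene, fell by 0.80 (FDR 0.0063). Leaving out 1 library gave 6 to 8 rises and 1 fall. Against the 12 hour pools 9 of 12 were higher and none was lower, and in con pools 10 of 12 rose and 1 fell.

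Of the otic epithelium markers, 5 of 11 rose and 2 fell, with a median of 0.27, where 27.8% of all genes were called. Against the 12 hour pools 2 of 11 were higher and 6 were lower, with a median of -0.42. Oc90, the main protein of otoconia, stood at 2230, 2910, 1350 and 1310 CPM and then at 3260, 4870 and 5010 CPM (log2 fold change 1.20, SE 0.29, FDR 0.0193). Gata3, a zinc finger gene of the otic lineage, stood at 80.6, 84.3, 77.8 and 69.1 CPM and then at 153, 146 and 147 CPM (0.97, SE 0.07, FDR 0.00124). The canal homeobox genes Hmx2 (1.34, FDR 0.00506) and Hmx3 (0.82, FDR 0.0137) rose and the early otic gene Pax8 fell (-0.94, FDR 0.0185). Oc90 was higher against the 12 hour pools as well (1.95), Pax8 was lower (-1.61), and Gata3 was lower there (-0.42, FDR 0.00459). Each fit without 1 library gave 2 to 4 rises in this list.

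Of 14 prosensory and Notch genes tested, 1 rose and 3 fell, a share called that is near the 27.8% over all genes. Fits without 1 library gave 1 or 2 rises and 2 to 5 falls. Lfng, the fringe glycosyltransferase gene that marks the neurosensory domain (chr5:140607320-140615545, plus strand), stood at 283, 300, 445 and 266 CPM and then at 162, 53 and 66.5 CPM (log2 fold change -1.75, SE 0.38, FDR 0.0127). Jag1, a Notch ligand gene of the prosensory domain, stood at 364, 375, 440 and 360 CPM and then at 284, 169 and 236 CPM (-0.71, SE 0.16, FDR 0.0142). Prox1 fell by 0.56 (FDR 0.0158), a call lost without litter 070715 (FDR 0.0508) and without litter 070915 (FDR 0.0541), and the cell cycle inhibitor gene Cdkn1b rose by 0.29 (FDR 0.00959). Sox2, the prosensory determinant, was not called (-0.33, FDR 0.0869). Against the 12 hour pools Lfng was lower as well (-1.68), and so was Cdkn1b (-0.42), which turned its direction.

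Of 10 hair cell genes 5 were tested. Myo7a, an unconventional myosin gene of hair cells that is also expressed in otic epithelium before they form, stood at 146, 146, 174 and 152 CPM and then at 95.1, 31.3 and 48 CPM (log2 fold change -1.38, SE 0.32, FDR 0.0156). Its call was lost without litter 070915 (FDR 0.0601). Myo6 rose by 0.56 (FDR 0.0459). That call was lost in the fits without litters 070715, 070915, 310, 329 and 3716. Espn was not called (-0.58, FDR 0.0559).

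Of 19 otic neuroblast genes 18 were tested, with 3 rises, 4 falls and a median of 0.38. Over all genes 27.8% were called. Against the 12 hour pools the list had 1 rise and 5 falls and a median of -0.17. In con pools of the same litters it had 1 rise and 7 falls and a median of -0.96. No member was called in the difference from con described below. Neurog1, the proneural gene of otic neuroblasts, stood at 20.4, 22.2, 25.4 and 23 CPM and then at 17.5, 7.16 and 8.09 CPM (log2 fold change -1.03, FDR 0.0302). The Notch ligand gene Dll1 (-0.53, FDR 0.0326), Hes6 (-0.33, FDR 0.0348) and Eya2 (-0.45, FDR 0.0256) fell with it. Isl1, a LIM homeobox gene of neuroblasts and ventral epithelium, stood at 33.5, 28.1, 12.2 and 21.2 CPM and then at 49.8, 60.9 and 76.5 CPM (1.43, SE 0.30, FDR 0.0118), and the neurotrophin receptor gene Ntrk3 rose by 1.86 (FDR 0.00704). Isl1 was higher against the 12 hour pools as well (0.69, FDR 0.00975), while Ntrk3 was not called there (0.87, FDR 0.126).

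High values of the neuronal differentiation genes came from 1 library. Stmn2, a microtubule regulator gene of growing neurites, stood at 2.28, 2.3, 3.38 and 3.31 CPM and then at 4.56, 5.95 and 56.8 CPM, the last in litter 070915. Its log2 fold change was 3.03 (SE 0.83, FDR 0.0288) with that litter and 0.92 (FDR 0.0412) without it, and the call was lost without any 1 of the 4 E10.25 libraries (FDR 0.053 to 0.0757). Litter 070915 was also the highest for Elavl4 at 40.8 CPM against 5.29 and 5.18 in the other E11.25 pools, for Pou4f1 at 19.9 CPM against 1.89 and 2.05, and for Tubb3 at 175 CPM against 75 and 59.9. None of these 3 was called. Without each library in turn the list gave 2 to 3 rises and 0 to 4 falls, with no fall without litter 070715 or litter 310 and 1 without litter 070915 or litter 315. Its median was -0.37 without litter 070915.

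Retinoic acid patterns the otocyst along its anterior to posterior axis. Of 14 retinoic acid genes, 4 rose and 3 fell, where 27.8% of all genes were called. Dhrs3, a retinaldehyde reductase gene (chr4:144892827-144928209, plus strand), stood at 6.98, 6.69, 5.04 and 6.29 CPM and then at 19.4, 28.3 and 21.1 CPM (log2 fold change 1.92, SE 0.17, FDR 0.00145). Rarb, a retinoic acid receptor gene, stood at 12, 13.8, 9.32 and 11.1 CPM and then at 31.3, 34.6 and 22.9 CPM (1.40, SE 0.17, FDR 0.00281). Aldh1a3, encoding an enzyme that makes retinoic acid (chr7:66390890-66427517, minus strand), stood at 90.5, 112, 59.6 and 66.8 CPM and then at 194, 211 and 244 CPM (1.43, SE 0.21, FDR 0.00368). The stages were separate in all 3, and each was called higher against the 12 hour pools, by 1.15, 2.17 and 1.72.

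Rara rose by 0.55 (FDR 0.00355) and was lower against the 12 hour pools (-0.34, FDR 0.0351). The genes of cytoplasmic retinoic acid binding proteins fell, Crabp1 by 1.82 (FDR 0.0176) and Crabp2 by 0.69 (FDR 0.0151). The degrading enzyme gene Cyp26a1 stood at 32.7, 29.5, 30.4 and 52.9 CPM and then at 39.1, 27.4 and 28.9 CPM and was not called (-0.16, FDR 0.627). Fits without 1 library gave 4 or 5 rises and 0 to 3 falls, with no fall without litter 070715 and 1 without litter 070915.

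The promoters of Rarb and Cyp26a1 are shown because both hold the element through which retinoic acid receptors act, while only Rarb was called. Windows of 250 bases before to 50 bases after the gene start came from RefSeq (GRCm38.p6) for 11 of the 14 genes. Both strands were searched for the DR5 element, a pair of receptor half-sites in the same direction separated by 5 bases. It was found in 32 of 32851 windows (0.0974%) and in 2 of 21 windows of these genes, and it is in capitals below.
Rarb, chr14:16575427-16575726, minus strand: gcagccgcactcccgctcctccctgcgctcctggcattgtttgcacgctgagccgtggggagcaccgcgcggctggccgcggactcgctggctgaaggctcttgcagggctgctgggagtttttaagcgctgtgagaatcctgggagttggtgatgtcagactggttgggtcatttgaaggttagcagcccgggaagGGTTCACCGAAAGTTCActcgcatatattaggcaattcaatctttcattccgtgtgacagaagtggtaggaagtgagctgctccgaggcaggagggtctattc
Cyp26a1, chr19:37697558-37697857, plus strand: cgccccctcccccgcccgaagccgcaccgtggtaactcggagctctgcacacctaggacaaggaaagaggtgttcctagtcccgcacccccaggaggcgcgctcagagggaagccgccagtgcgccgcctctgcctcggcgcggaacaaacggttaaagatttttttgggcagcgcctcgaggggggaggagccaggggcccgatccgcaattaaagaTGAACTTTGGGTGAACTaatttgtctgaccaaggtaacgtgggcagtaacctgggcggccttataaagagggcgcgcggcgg

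The element ends 36 bases before the start site in Rarb and 15 bases before it in Cyp26a1, where it lies on the other strand. These letters are a description of the reference and not evidence of binding in the otocyst.

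FGF readout genes, which are transcribed in response to FGF signalling through the ERK pathway, gave 7 rises and no fall among 14, with a median of 0.86. Over all genes 14.3% rose. Spry1, a feedback inhibitor gene, stood at 15.1, 11, 14.9 and 13.7 CPM and then at 18.6, 31.9 and 22.1 CPM (log2 fold change 0.86, SE 0.19, FDR 0.0137). Spred3 (1.21, FDR 0.016), Spry2 (0.73, FDR 0.0206), Spred2 (0.71, FDR 0.0273), Spred1 (0.39, FDR 0.02), Egr1 (1.39, FDR 0.0336) and the ETS factor gene Etv4 (1.86, FDR 0.0475) also rose. Etv5 stood at 22.3, 18.6, 12 and 32.7 CPM and then at 24.6, 68.9 and 35.9 CPM, with overlapping groups, and was not called (1.05, FDR 0.078). Dusp6, the ERK phosphatase gene, was not called (0.87, FDR 0.0622).

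Litter 070715 was the highest E11.25 pool in Spry1, Spry2, Etv4, Etv5 and Dusp6. Without it 2 of the 14 were called, without litter 070915 or litter 310 the count was 3, without litter 315 or litter 329 it was 4, and without litter 3716 it was 11. Against the 12 hour pools 4 of 14 were higher and none was lower, with a median of 0.56. Spry1 (0.49, FDR 0.11) and Spred3 (0.28, FDR 0.638) were not called there, while Spry2 (0.63, FDR 0.0386) and Spred1 (0.7, FDR 0.00466) were. In con pools of the same litters 5 of 14 rose and none fell, with a median of 0.25. At E11.25 the R2b means of these 4 named genes were below con. They were 24.2 against 46.6 CPM for Spry1, 23.4 against 55.2 for Spred3, 20.1 against 38 for Spry2 and 140 against 176 for Spred1. Among 8 genes of FGF ligands and receptors, Fgfr1 (0.37, FDR 0.00901) and Fgf9 (0.74, FDR 0.0266) rose and Fgf3 fell (-0.95, FDR 0.033). The call of Fgf3 was lost without litters 070715, 070915, 315 and 329, and that of Fgf9 without litters 070715, 070915, 310 and 3716.

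Of 15 Wnt pathway genes 7 rose and 2 fell, where 27.8% of all genes were called. Wnt4 (1.10, FDR 0.0179), the stem cell receptor gene Lgr5 (0.91, FDR 0.00817), Rnf43 (0.90, FDR 0.003) and Lef1 (0.66, FDR 0.003) were higher. Sp5 (-0.73, FDR 0.0058) and Axin2 (-0.22, FDR 0.0243) were lower. Of 12 BMP pathway genes 5 rose and 1 fell: the antagonist gene Nog rose by 1.66 (FDR 0.00394), Id4 by 0.84 (FDR 0.00163), Smad9 by 0.78 (FDR 0.0052) and Smad7 by 0.66 (FDR 0.00381). Of 10 Hedgehog pathway genes Gli2 rose (0.48, FDR 0.00555) and the receptor gene Ptch1 fell (-0.39, FDR 0.0133), a share called below the 27.8% over all genes.

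Over libraries left out, the Wnt list gave 5 to 8 rises and 1 to 3 falls, the BMP list 4 to 6 rises and at most 1 fall, and the Hedgehog list 1 or 2 rises and 1 fall. These pathway values depended on the E10.25 side. Against the 12 hour pools Lef1 was at -0.76, Tcf7l1 at -1.16 and Gli2 at -0.48, all called lower, where the 24 hour pools gave rises of 0.66, 0.41 and 0.48. Id4 and Smad9 were not called there (-0.10 and -0.19). Nog (0.79), Smad7 (0.51), Rnf43 (0.43) and Wnt4 (1.29) were higher on both sides, and Sp5 (-1.22), Axin2 (-0.70) and Ptch1 (-0.91) were lower on both.

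Against the 24 hour pools, 7 of 15 S phase genes and 6 of 15 G2/M phase genes fell and none rose. Their medians were -0.28 and -0.24, and the other 8 and 9 were not called. Over all genes 13.5% fell. Mcm6, a subunit of the replicative helicase, stood at 340, 344, 421 and 394 CPM and then at 281, 263 and 240 CPM (log2 fold change -0.48, SE 0.09, FDR 0.00705). Cdk1, the mitotic kinase, stood at 180, 175, 207 and 209 CPM and then at 140, 146 and 126 CPM (-0.45, SE 0.08, FDR 0.00651). In the 12 hour pools of the same end stage Cdk1 stood at 62.3, 76.7 and 86.3 CPM, below each of the 7 pools described.

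Against those pools Cdk1 was higher at E11.25 (0.80, FDR 0.0021), 8 of the 15 G2/M genes were higher and none lower, and the S phase list had 2 falls. Cenpe (-0.52), Cenpf (-0.34) and Kif23 (-0.42) of the G2/M list and Rrm1 (-0.25), Rrm2 (-0.55) and Cdc45 (-0.32) of the S phase list fell against the 24 hour pools. The S phase count was 1 without litter 070915 and 3 without litter 070715, and the G2/M count was 4 to 8 over the libraries left out. Of 7 genes of D cyclins and CDK inhibitors, Ccnd1 (-0.30), Ccnd2 (-0.48), Cdkn1c (-0.43) and Cdkn1a (-0.28) fell and Ccnd3 rose (0.37). This list gave 2 falls in the fits without litters 070715, 070915, 310, 315 and 329. The call of Cdkn1a was lost in those 5 fits and that of Ccnd3 without litters 061215, 070715, 310, 315 and 329, and both genes had overlapping groups. None of 11 p53 target genes tested was called, with an edgeR FDR of 0.0643 for Bax as the lowest.

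Among 13 epithelial junction and keratin genes, Cldn9 rose (0.48, FDR 0.0193) and 4 fell: the neural cadherin gene Cdh2 (-0.52, FDR 0.0218) and the keratin genes Krt18 (-0.47, FDR 0.026), Krt7 (-0.45, FDR 0.0373) and Krt8 (-0.42, FDR 0.0323). Krt18 stood at 350, 358, 346 and 248 CPM and then at 217, 242 and 229 CPM. Litter 3716, the pool with the most mesenchyme marker, was the low E10.25 library in Krt7, Krt8 and Krt18. The Krt8 and Krt18 calls were lost in 6 of the 7 fits that left out 1 library, and without litter 3716 the list gave 6 falls. Cdh1, encoding epithelial cadherin, was not called (0.13). The list median was 0.02. In con pools of the same litters 6 of 13 rose and none fell, with a median of 0.39.

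Of 11 ion transport and gap junction genes tested, 3 rose and 1 fell, where 27.8% of all genes were called. Atp1b2, a sodium pump subunit gene (0.95, FDR 0.00251), and Atp6v0a4, a proton pump subunit gene of the endolymphatic epithelium (1.21, FDR 0.00683), rose. Gjb6, a connexin gene, stood at 9.82, 5.18, 14.5 and 4.8 CPM and then at 2.21, 2.71 and 2.34 CPM (-1.78, FDR 0.0143). Atp6v0a4 was higher against the 12 hour pools too (1.19), while Atp1b2 was lower (-0.71, FDR 0.00131). Slc12a2 rose by 0.36 at the threshold (FDR 0.0499), and its call was lost without any of the litters 070715, 070915, 310, 315, 329 and 3716. The ion transport list gave 2 or 3 rises and 0 to 2 falls over libraries left out.

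Few markers of other tissues were called. Lum, a proteoglycan gene on the mesenchyme list, stood at 56, 72, 13.7 and 29.5 CPM and then at 183, 236 and 265 CPM (2.45, SE 0.46, FDR 0.00805), while none of the other 10 mesenchyme markers tested was called. None of 12 endothelium markers and none of 4 macrophage markers tested was called. Hoxb2 was the single one of 6 hindbrain markers to be called (-1.39, FDR 0.0382), from at most 6.17 CPM. None of 5 sex-linked genes was called.

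**Figure D3:**
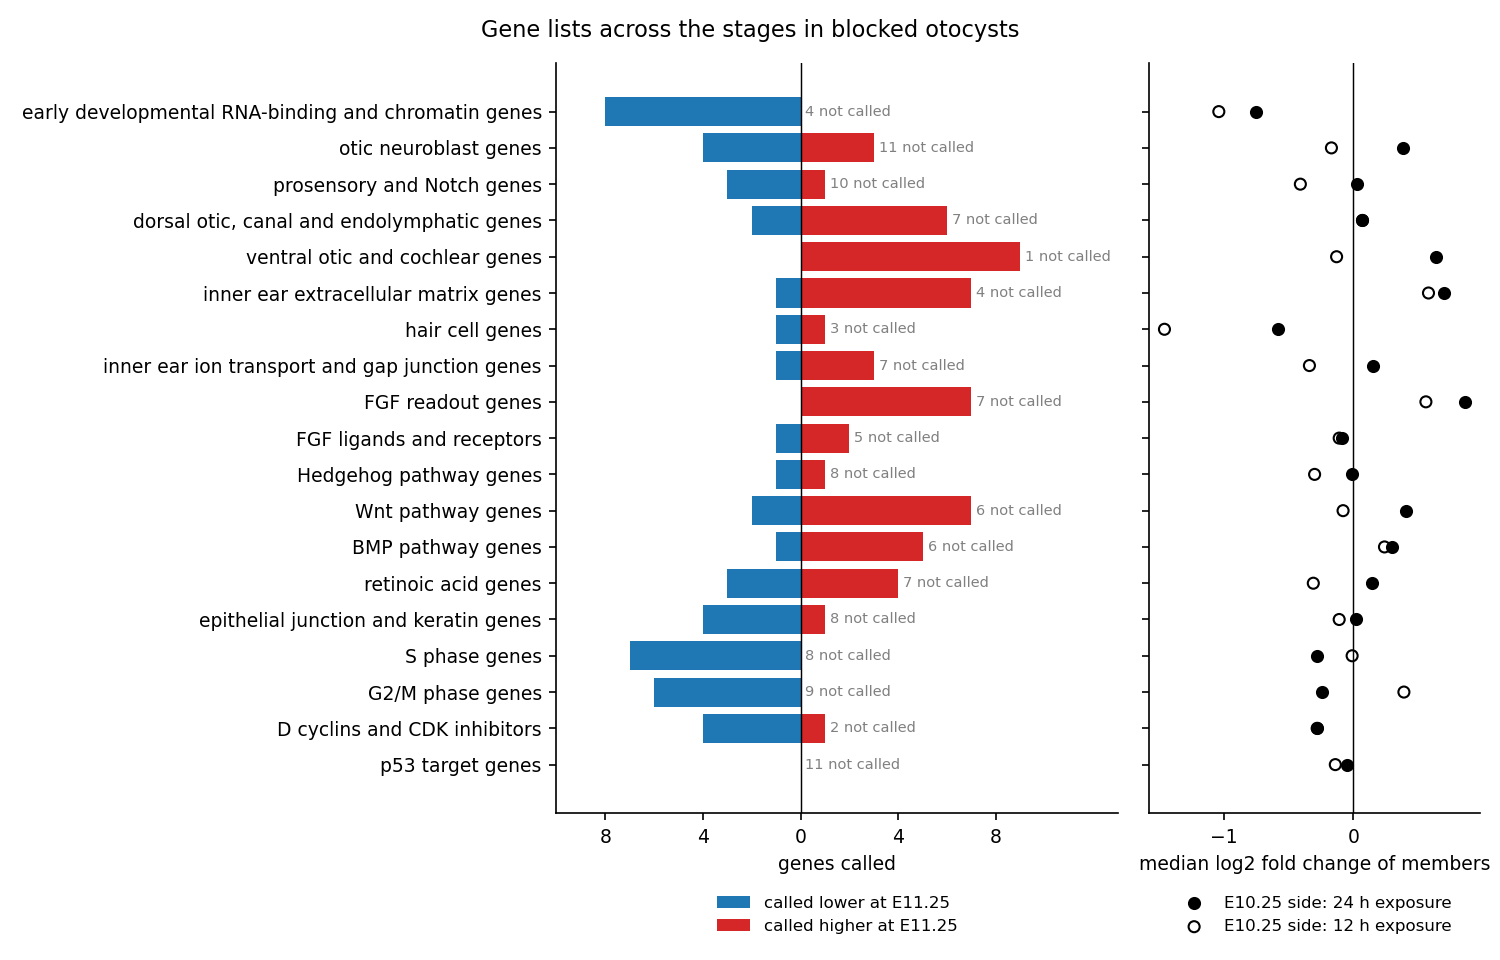
Left, number of genes called lower (blue) and higher (red) at E11.25 in each of 19 lists, with the number tested and not called in grey. Right, median log2 fold change of each list against the 24 hour pools (filled) and the 12 hour pools (open). The early developmental list lies below 0 and the extracellular matrix and FGF readout lists above 0 on both sides. The otic neuroblast, prosensory and Notch, ventral otic, ion transport, Wnt, retinoic acid, epithelial junction and G2/M lists change sign.

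Over all 19 lists 231 of 243 genes were tested, and 107 of these were called (46.3%) beside 27.8% of all genes. The lists were chosen with earlier results of these data known, and members beyond the 4 with the lowest FDR in a list were named after their values were seen. Of the members, 9 had no row in the table used here and 3 more did not pass the filter on low counts.

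**Figure D4:**
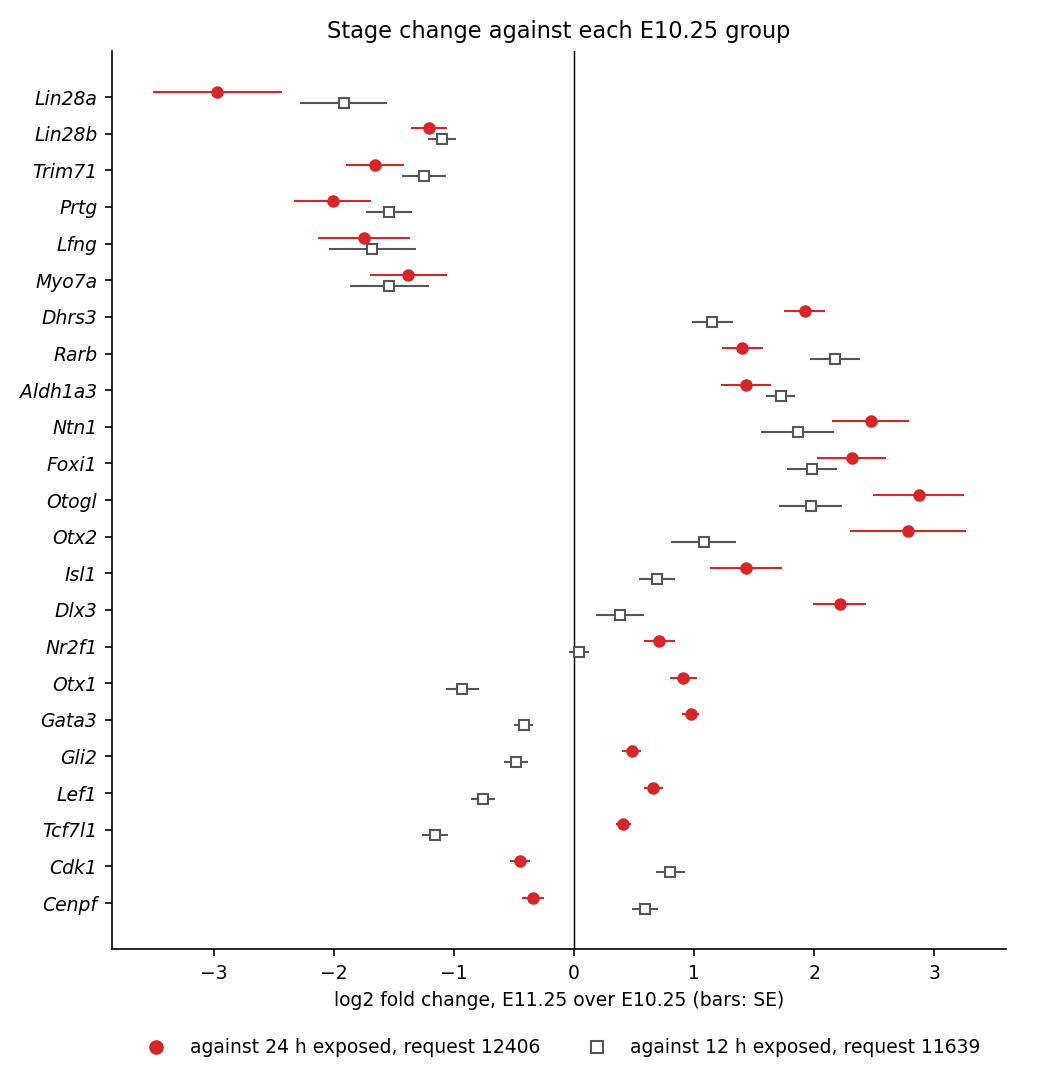
Log2 fold change with SE for the genes named on the axis, against the 24 hour E10.25 pools (red circles) and the 12 hour E10.25 pools (open squares). Both comparisons share the 3 E11.25 libraries. Genes from Lin28a to Isl1 keep their sign on both sides, and Otx1, Gata3, Gli2, Lef1, Tcf7l1, Cdk1 and Cenpf change sign.

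The control pools of the same 7 litters passed through the same stages and the same requests, so the difference of the 2 stage changes compares genotypes within the same stages and requests. In con pools 4345 of 15180 genes were called (28.6%), 2128 higher and 2217 lower. The library labelled con of litter 070715 held 5106 Ighg1 counts where the other 6 con libraries held 1 to 28, and its Fgfr2 level was 407 CPM against 128 to 232 CPM. Without it 1529 con genes were called, and without the con library of litter 070915 1702 were.

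With 4 group means and no litter term the difference gave 0 of 15560 genes (0.00%) in edgeR, with 838 at an unadjusted p under 0.05, and 27 genes in DESeq2. With litter as a block, which the shared female of each pair of pools warrants, 96 genes were called (0.617%): 24 with a higher stage change in R2b and 72 with a lower one. The blocked count was 40 without litter 070715, 50 without litter 070915, 408 without litter 061215, and 8 to 44 without each of the E10.25 litters. Among the 96 were 10 genes of the lists, which are named here after their values were seen. They are Otogl, Otx1 and Otx2, with a higher stage change in R2b, and Bmper, Aldh1a3, Cldn3, Krt7, Krt19, Oc90 and Col11a1, with a lower one.

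Otx2 was low in R2b at E10.25 and closer to con at E11.25. Its mean was 6.03 ± 3.61 CPM (SD, n = 4) in R2b and 28.1 ± 10.4 CPM in con at E10.25, and 40.3 ± 16.3 CPM (SD, n = 3) and 59.2 ± 8.09 CPM at E11.25. The difference of stage changes was 1.68 on the log2 scale (SE 0.27, FDR 0.0301 with litter as a block). Otx1 was not called between con stages (0.03, FDR 0.904), at 63.6, 69, 57.6 and 45.2 CPM and then 64.5, 55.6 and 58.2 CPM, and rose in R2b from 20.7 ± 2.61 to 37.9 ± 3.14 CPM (difference 0.87, SE 0.11, FDR 0.0125). R2b was below con in each litter for both genes. Otogl rose in R2b from 9.74 ± 4.64 to 69.1 ± 22.8 CPM and in con from 25.1 ± 15.4 to 71.6 ± 18.7 CPM (difference 1.26, SE 0.13, FDR 0.00782).

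Other genes of the 10 were above con in R2b at E10.25. Aldh1a3 rose in R2b from 82.2 ± 23.9 to 216 ± 25.5 CPM and in con from 18 ± 4.87 to 113 ± 39.5 CPM (difference -1.19, SE 0.17, FDR 0.0171). Bmper, encoding a secreted BMP-binding protein, stood at 189 ± 27.2 and 131 ± 33.4 CPM in R2b and at 53.4 ± 12.2 and 80.6 ± 8.85 CPM in con (-1.15, SE 0.15, FDR 0.0164). Col11a1 went from 914 ± 108 to 511 ± 96.3 CPM in R2b and from 409 ± 30 to 334 ± 9.9 CPM in con (-0.54, SE 0.10, FDR 0.0446). Oc90 rose in both, by 1.20 in R2b and by 1.74 in con (difference -0.59, SE 0.09, FDR 0.0301).

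Krt7 fell in R2b and rose in con, with means of 74.8 ± 12.3 and 53.5 ± 6.03 CPM in R2b and of 25.9 ± 2.9 and 40 ± 7.68 CPM in con (difference -1.08, SE 0.16, FDR 0.0277). Krt19 differed by -0.73 (SE 0.12, FDR 0.0301) and the tight junction gene Cldn3 by -0.62 (SE 0.09, FDR 0.024). Surface ectoderm markers also varied among con pools. Their summed level was 86.4, 41.3 and 3.29 CPM in the con pools of litters 061215, 070715 and 070915 and 1.37 to 1.79 CPM in the E10.25 con pools. In the same order of E11.25 litters, con Krt7 stood at 47, 41.3 and 31.8 CPM. Con Krt19 stood at 49, 44.9 and 47.8 CPM and con Cldn3 at 80.3, 82.4 and 96.2 CPM. The part of surface ectoderm in these differences was not tested.

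The difference in Otogl was called in all 7 blocked fits that left out 1 litter, and each of the other 9 lost its call in at least 1. The Otx1 difference lost its call without litter 315 (FDR 0.058), and the Otx2 difference without any of litters 070915, 310, 315, 329 and 3716 (FDR 0.0621 to 0.0808). Bmper and Cldn3 lost theirs without 315 and without 329, Aldh1a3 and Krt7 in 3 fits each, Oc90 in 4, Krt19 in 5 and Col11a1 in 6. No difference changed sign. Among the genes named for the size of their stage change, Fam20a (difference 1.63, FDR 0.0301) and Car4 (-1.22, FDR 0.0159) were also called with litter as a block.

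**Figure D5:**
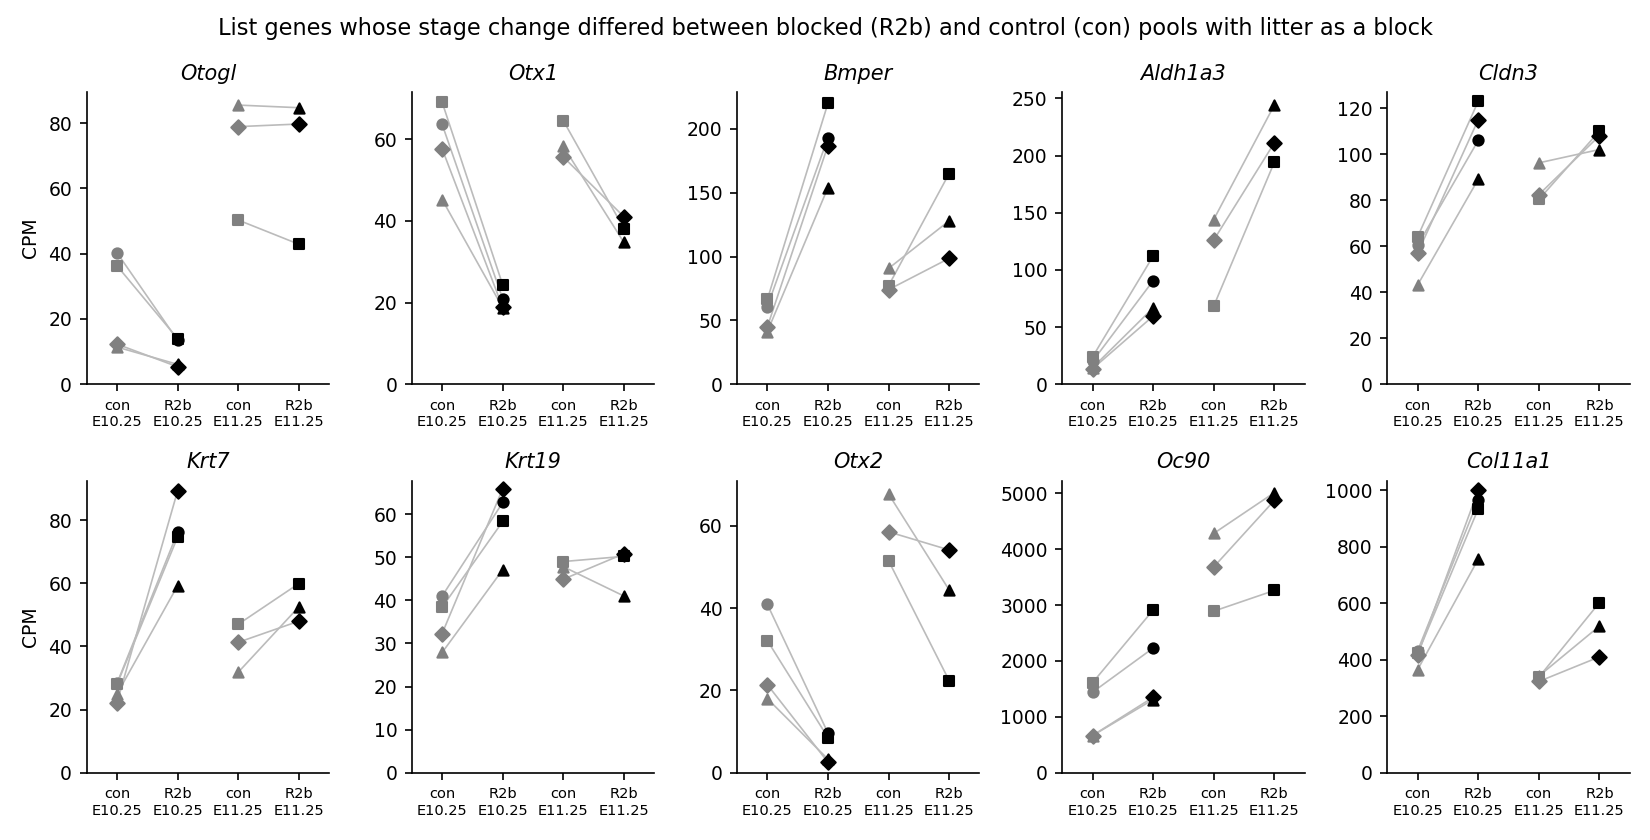
CPM in each con (grey) and R2b (black) pool at E10.25 and E11.25 for the 10 list genes called in the difference with litter as a block. Lines join the 2 pools of a litter and marker shapes stand for litters within a stage. Otx1 and Otx2 lie below con in R2b in every litter, while Bmper, Aldh1a3, Krt7 and Col11a1 lie above it in every litter.

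Stage changes of the early developmental genes are given for both genotypes. Lin28a fell by 2.97 in R2b and by 3.13 in con, Lin28b by 1.21 and 1.52, and Trim71 by 1.66 and 1.65. The differences with litter as a block were 0.12, 0.29 and -0.01, and none was called. Lfng (-1.75 and -1.68) and Ntn1 (2.47 and 2.66) had blocked differences of -0.25 (FDR 0.574) and -0.30 (FDR 0.495). A difference that was not called does not show that R2b and con changed alike.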

How the data were processed

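RNA from pooled otocyst epithelia was sequenced as poly(A)-selected, stranded libraries, per the labels' protocols. The deposited values are raw counts per gene, whole numbers made by the authors. The submitters' processing notes name Novoalign 2.08.03 and mm10. The counter and annotation are not given in the sources used here. The table held 15736 genes, each with at least 100 counts over the columns used, and 15522 identifiers matched a symbol in GENCODE M21 (GRCm38). Of the count columns 2 matched no sample and were not used, and 2 samples had no column. Totals of the R2b libraries were 20.3 to 28.2 M counts. Libraries of a group differed beyond counting noise (chi-square per degree of freedom 5.48 to 26.4), so none was counted as a duplicate.

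edgeR 4.0.16 under R 4.3.3 was used with filterByExpr, TMM scaling and the quasi-likelihood test (glmQLFit, glmQLFTest), with Benjamini-Hochberg adjustment over all genes tested. SE were derived from the fold change and its F statistic. DESeq2 1.42.0 was an alternative. On simulated data, changes of 1.5, 2 and 4-fold were given to 67, 67 and 66 genes, none of low count. Of these, 41.8, 77.6 and 92.4% were recovered in the stage comparison (15205 genes in the fit). In the difference from con without a litter term (15468 genes in the fit), 35.8, 64.2 and 84.8% were recovered. Far fewer genes were changed in the simulation than were called between the stages, so the recovery need not hold for the real stage fit. The fit with litter as a block was not simulated. Alternatives were other scaling, filters and dispersion, other sample sets, the 12 hour E10.25 side, litter as a block, and each library left out.

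Each female gave a con and an R2b pool, so litter numbers pair the samples. Same-litter pools deviated together, with correlations of 0.50, 0.31 and 0.46 at E11.25 and 0.46, 0.59, 0.81 and 0.79 at E10.25.

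Named genes were at most 4 called members per list with the lowest FDR, and the 10 largest rises and falls with mean log2 CPM of at least 2, no overlap of groups and a call in the same direction against the 12 hour pools. Some called members of the lists are not reported here. The members and lists were chosen with earlier results of these data known.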

Additional observations from a re-analysis of the deposited data

Results flagged for a closer look

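Among 94 named genes, 6 had 1 of the 4 E10.25 R2b libraries far from the other 3, measured by its gap to the nearest library as a share of the range. Chance alone flags about 5% of groups. Litter 329 was the high library for Lin28a at 195 CPM, Wfikkn1 at 244 CPM and Psd2 at 32.8 CPM. Litter 3716 was high for Epha3 at 3.94 CPM and low for Krt18 at 248 CPM. Litter 310 was low for Tcf7l1 at 70.2 CPM.

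In data outside the comparisons, the library labelled con of litter 061115 held 15754 Ighg1 counts, where the con libraries of litters 061215 and 070915 held 28 and 16.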

How the results depend on the processing

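Of the 94 named genes, 23 lost their call without litter 070715, 20 without 070915, 15 without 310, 11 without 329, 9 without 315, and 4 each without 061215 and 3716, and none changed sign. DESeq2, other scaling, other filters and robust dispersion kept the call of 91 to 94. The count of stage calls ran from 2159 to 4191 over libraries left out and fell to 1446 with a fold change of at least 1.5. The con count ran from 1529 to 4518. The same-stage contrast of 24 and 12 hour R2b pools ran from 4949 to 6911. The difference gave 0 to 7 calls over libraries left out, 27 in DESeq2 and 96 with litter as a replicate block. Over litters left out, the blocked count ran from 8 to 408. Pairing by litter thus changed the call of the 10 genes described above.

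With the 12 hour E10.25 side, 13 named genes lost their call and 19 changed sign. These were Cdkn1b (-0.42), Otx1 (-0.93), Tbx3 (-0.07), Atp1b2 (-0.71), Gli2 (-0.48), Lef1 (-0.76), Tcf7l1 (-1.16), Id4 (-0.10), Smad9 (-0.19), Rara (-0.34), Gata3 (-0.42) and Hmx3 (-0.18), all positive against the 24 hour side. Mcm6 (0.10), Rrm1 (0.27), Rrm2 (0.25), Cenpe (0.39), Cdk1 (0.80), Kif23 (0.25) and Cenpf (0.59) were negative against it. With the mean of both sides, 14 lost their call and 8 changed sign: Cdkn1b (-0.07), Otx1 (-0.01), Gli2 (0.00), Lef1 (-0.05), Tcf7l1 (-0.38), Rrm1 (0.00), Cdk1 (0.17) and Cenpf (0.12). The cause was not tested. A gene without a call may still differ by an amount that 3 and 4 libraries of 20.3 to 28.2 M counts do not resolve.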

Other observations

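Genes outside the lists, chosen after their values were seen as those with the lowest FDR in the difference from con with litter as a block, were mostly higher in R2b than in con at E10.25. Hapln1, encoding a link protein that ties hyaluronan to proteoglycans, stood at 216, 216, 180 and 153 CPM in R2b and at 58.4, 45.7, 29.7 and 40.1 CPM in con at E10.25. At E11.25 it stood at 150, 68.4 and 108 CPM in R2b and at 89.3, 49.8 and 57.2 CPM in con, a difference of stage changes of -1.43 (SE 0.16, edgeR FDR 0.00782). R2b was above con in each of the 7 litters.

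Cpxm2, a carboxypeptidase-like gene, had means of 17.8 ± 3.59 CPM (SD, n = 4) and 14.5 ± 1.62 CPM (SD, n = 3) in R2b and of 3.05 ± 1.08 and 8.32 ± 0.381 CPM in con, with a difference of -1.74 (SE 0.19, edgeR FDR 0.00782). Lrrtm1, a leucine-rich repeat transmembrane protein gene, differed by -1.04 (FDR 0.00782). Npnt, encoding the basement membrane protein nephronectin, fell in R2b from 150 ± 19 to 97.1 ± 11.7 CPM and was not called in con, at 107 ± 17 and 102 ± 7.58 CPM (difference -0.54, FDR 0.0125). Ppp1r12b, a myosin phosphatase subunit gene, went the other way (0.73, FDR 0.00941), with 38.7 ± 7.46 and 55.7 ± 11 CPM in R2b and 59.3 ± 14.3 and 51.4 ± 5.65 CPM in con.

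Sfn, an epidermal 14-3-3 gene, differed by -3.36 (FDR 0.0135) with a mean of 6.05 ± 4.98 CPM (SD, n = 3) in the E11.25 con pools and its lowest value, 0.556 CPM, in litter 070915. The other con pools, of litters 061215 and 070715, held the most surface ectoderm marker, at 86.4 and 41.3 CPM, and the part of that tissue in the difference was not tested.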
